A study of Canis lupus familiaris with 7 samples.

Results

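The genes of fatty acid uptake and oxidation were followed in dog left ventricle, in animals fed 0.5% sodium chloride for 2 weeks and in controls. The list holds 40 genes that carry fatty acids from the blood to the electron transfer chain or store them on the way. Members were chosen by name, through every probe set (a short group of probes aimed at 1 transcript) whose single gene symbol in the platform annotation is on the list. The annotation names 37 of the 40 genes, on 94 of the 42860 probe sets that are not controls, among 15115 named genes in all; ACOT1, ACOT2 and ACACB are not analysed here. All 37 genes had at least 1 probe set bright enough to test, which made 85 of the 28573 tested probe sets. The other 9 probe sets were too dim; each belongs to a gene with another, tested probe set.

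Adult male mongrel dogs were studied, and total RNA of the left ventricle was hybridised to 1-colour Affymetrix canine arrays, 1 array per sample. The 4 low-salt samples are numbered 1 to 4, and the 3 control samples are numbered 1, 3 and 4. Neither the salt content nor the feeding time of the control diet is given in the sources used here. The series design counts 10 dogs given low salt, and whether each array is 1 dog or a pool is not given either, so the p-values rest on the spread among 7 samples that may share animals. The arrays carry no read depth, and their number limits the precision.

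The working heart takes most of its energy from long-chain fatty acids. Lipoprotein lipase frees them at the capillary wall, CD36 and the fatty acid transport proteins help them into the cell, and fatty acid binding proteins carry them through the cytosol. Acyl-CoA synthetases activate them, the carnitine shuttle brings them across the inner mitochondrial membrane, and beta-oxidation shortens them by repeated cycles of dehydrogenation, hydration, dehydrogenation and thiolysis. Electron transfer flavoprotein passes the electrons of the first step of each cycle to the respiratory chain. Fatty acids that are not burned at once are held as triglyceride in small lipid droplets.

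Signals are given as log2 of the deposited signal plus 16 after quantile normalization, and a change is low salt minus control on that scale, with its SE from limma's fit. A change of 1 on this scale is 2-fold, and it understates the change of dim probe sets. Signals of different probe sets depend on their probes and are not compared as amounts of RNA. The cardiomyocyte markers bear out the labelled tissue: all 29 probe sets of 12 marker genes were tested, with a median mean signal of 11.35 against 6.10 over all tested probe sets. The deposited medians ran from 31.5 to 51.3 in the controls and from 19.3 to 44.2 in low salt, a range of 0.93 on the log2 scale. Control 4 and low-salt 3 had the highest medians, and their deviations from the group means correlated at r = 0.43 over the tested probe sets, while the other control and low-salt pairs lay between -0.26 and 0.14. These 2 arrays were together the 2 lowest or the 2 highest of the 7 in 24 of the 85 member probe sets (28.2%), against 22.7% of all tested probe sets. No other pair of a control and a low-salt array reached more than 14 member probe sets. On 1 pair of GAPDH control probe sets, the ratio of the 3' to the 5' signal, a measure of RNA integrity and labelling, was 2.43, 2.78 and 2.53 in the controls. In low salt it was 2.36, 2.03, 2.28 and 2.41, and the groups do not overlap in that ratio. A second GAPDH pair read 10977 to 19699 at the 3' end and 482 to 747 at the 5' end in the controls. In low salt that pair read 11311 to 15910 and 592 to 960. Its 3' excess was thus larger than that of the first pair in both groups. The ratio of the second pair was also higher in every control than in every low-salt array. The groups thus do not overlap in either pair. They came closest in control 4 (10977 over 483) and low-salt 4 (13355 over 592). The part of these ratios in the results below was not tested.

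Where the signal was strong, the member genes differed little between the groups after quantile normalization, as did most tested probe sets of that brightness. Among the 33 member probe sets with a mean signal above 9, changes ran from -0.51 to 0.70 around a median of 0.06, and the 95% interval excluded a 2-fold change in either direction for 30 of them (90.9%). Over all 3895 tested probe sets of that brightness the share was 93.6%. On the values as deposited 30 of the 33 members again excluded it (90.9%, against 92.0% of all equally bright probe sets), with changes from -0.36 to 0.77. With the array medians set equal 2 of 33 did (6.06%, against 7.14% of all equally bright probe sets). That scaling shifted the median of all probe sets above 9 to 0.56, and that of these members to 0.63. The 2 highest changes among these bright members were those of ACADS, the dehydrogenase of short-chain fatty acids, at 0.70 ± 0.22 (SE), and FABP4, a fatty acid binding protein, at 0.59 ± 0.34. The lowest was that of CD36, the main fatty acid translocase of the heart, at -0.51 ± 0.22.

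No member passed an adjusted p of 0.05 (limma with Benjamini-Hochberg adjustment over all tested probe sets), where 103 of the 28573 did, a background of 0.360%. At an unadjusted p under 0.05, 6 member probe sets were higher in low salt against a background of 5.28%, and 2 were lower against 5.78%. Together they make 9.41% of the members, below the 11.1% of all tested probe sets. A change of at least 2-fold was seen in 2 member probe sets, of ACAD9 and ETFA, against a background of 4.60%. Both passed the filter on dim signals only through the group where they are high, as did 1 probe set each of PNPLA2 and PLIN5. The 7 arrays fell into groups that do not overlap in 3 member probe sets, 2 higher (background 5.13%) and 1 lower (background 5.67%), which is 3.53% of the members against 10.8% of all tested probe sets.

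The split of the 8 nominal calls rests on the scaling and on single arrays. It was 6 higher and 2 lower after quantile normalization, 6 and 5 on the values as deposited, and 17 and 1 with the array medians set equal. The median change of all tested probe sets was 0.04, -0.18 and 0.26 under those 3 scalings, and the members' median lay above it by 0.08, 0.24 and 0.24. With equal medians the calls made 21.2% of the members against 13.7% of all tested probe sets, and as deposited 12.9% against 13.6%. Without low-salt 3 there were 12 higher and 5 lower members (19.8% against 13.6% of all), without control 4 there were 3 and 2 (5.88% against 13.0%), and without low-salt 2 there were 2 and 0 (2.35% against 8.46%). The members' share thus lay above or below that of all probe sets depending on the setting.

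Over all 85 tested probe sets the changes had a median of 0.12, with quartiles of -0.16 and 0.41, against 0.04, -0.25 and 0.31 over all tested probe sets. Changes above 0 made 54 of the 85 (63.5%), against a background of 53.9%. Array by array, the median deviation of the members from the control mean was -0.05, 0.01 and 0.10 in controls 1, 3 and 4 and 0.07, 0.22, 0.02 and 0.18 in low-salt 1 to 4. The groups overlap in this median, with low-salt 1 and 3 below control 4. The 43 brighter members had a median change of 0.06 and the 42 dimmer ones 0.33, while all tested probe sets of those signal ranges had 0.04 in both. The median SE was 0.20 in the brighter and 0.36 in the dimmer members. Of the brighter members 36 had an interval that excluded a 2-fold change (83.7%, as in all tested probe sets of that range, 83.7%), and of the dimmer ones 10 did (23.8% against 29.8%). In all, 46 of the 85 members (54.1%) excluded a 2-fold change, against a background of 45.0%.

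**Figure D1:**
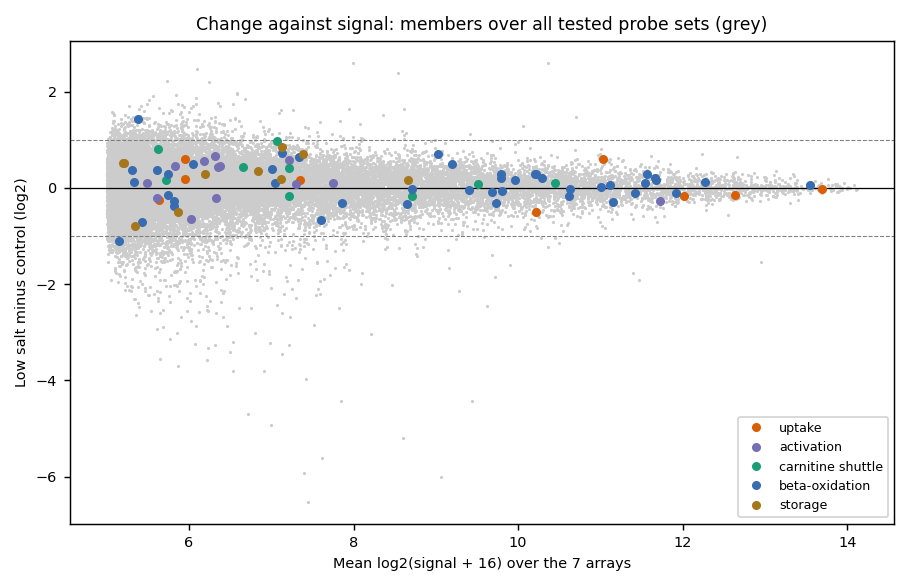
Change between low salt and control (log2, y axis) against the mean log2 signal over the 7 arrays (x axis) for all 28573 tested probe sets in grey and the 85 members coloured by step; dashed lines mark 2-fold. The members above a signal of 9 lie between -0.51 and 0.70, and the 2 members beyond 2-fold are dim.

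Uptake was read by 9 tested probe sets of 6 genes, with a median change of -0.01. CD36, which moves long-chain fatty acids through the plasma membrane, had signals of 10.58, 10.26 and 10.66 in controls 1, 3 and 4 and of 10.47, 10.01, 10.07 and 9.43 in low-salt 1 to 4. Low-salt 4 was the lowest array and low-salt 1 lay among the controls, so the groups overlap. The means were 10.50 ± 0.22 (SD, n = 3) and 10.00 ± 0.43 (SD, n = 4), a change of -0.51 ± 0.22 (95% interval -0.98 to -0.03; limma adjusted p = 0.427). With the array medians set equal its change was 0.072, the opposite sign, and on the values as deposited it was -0.36. CD36 kept its sign and its unadjusted call in 7 of 17 alternatives, with adjusted p between 0.366 and 0.937. The call was lost without control 1 (-0.46), control 4 (-0.43), low-salt 2 (-0.51) or low-salt 4 (-0.31).

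FABP3, the fatty acid binding protein of heart muscle, was among the brightest probe sets of the array. It had the smallest SE of the members after quantile normalization, which gives equal ranks equal values and so narrows the spread of top probe sets. Its deposited signal was 17599, 15906 and 11285 in the controls and 13935, 13338, 9988 and 12313 in low salt, with the lowest value of each group on control 4 and low-salt 3. On the normalized scale the change was -0.01 ± 0.09 (95% interval -0.20 to 0.17), and its other probe set differed by -0.16 ± 0.19. On the values as deposited the brighter probe set differed by -0.25. LPL, the lipase that frees fatty acids from circulating triglyceride, differed by -0.16 ± 0.16 (95% interval -0.50 to 0.18). Both FABP3 and LPL thus had intervals inside 2-fold.

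FABP4, the binding protein of capillary endothelium, adipocytes and macrophages, varied more among controls than between groups. Its signals were 9.89, 11.51 and 10.66 in the controls and 11.79, 11.70, 11.08 and 10.55 in low salt. The change of 0.59 ± 0.34 (95% interval -0.14 to 1.32) became 0.19 without control 1 and 1.0 without control 3. The transport proteins were dimmer: SLC27A1 differed by 0.19 and -0.24 on its 2 tested probe sets and SLC27A6 by 0.16 and 0.60, with overlapping groups in all 4.

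Since tissue RNA was measured, fewer cells of a type and less RNA per cell cannot be told apart. The summed deposited signal of 11 endothelial marker genes ran from 7302 to 10205 in the controls and from 7369 to 9537 in low salt, and 0 of its 16 tested probe sets had an unadjusted p under 0.05. For 10 macrophage marker genes it ran from 3610 to 5651 and from 4605 to 5533, and 2 of 18 tested probe sets were nominally higher, C1QB by 1.01 and MARCO by 1.75. For 9 adipocyte marker genes it ran from 299 to 697 and from 242 to 637. Of the adipocyte probe sets 7 of 14 were bright enough to test, CIDEC and PLIN1 were too dim, ADIPOQ differed by -0.57, and RETN, by 0.94, was the only one nominally called. For smooth muscle markers the summed signal ran from 1714 to 2316 in the controls and from 2256 to 3021 in low salt, and 4 of 13 tested probe sets were nominally higher, of TAGLN (1.28), CNN1 (1.19) and DES (0.75 and 0.77). Of 19 fibroblast probe sets 0 were called, with sums of 13937 to 23238 and 15104 to 21992. Cardiomyocyte sums ran from 102997 to 155422 and from 100364 to 141277, with 1 nominally higher probe set (TNNI3, 0.25) and 3 lower (MYH7, ATP2A2 and CKMT2, -0.86, -0.68 and -0.87), while the brightest probe sets of these 3 genes differed by -0.03, 0.01 and 0.18. Nominal calls in either direction made 30.8% of the tested smooth muscle probe sets, against 11.1% of all tested probe sets. They made 11.1% for macrophage, 14.3% for adipocyte and 13.8% for cardiomyocyte markers. Changes were above 0 in 9 of 13 smooth muscle and 16 of 18 macrophage probe sets, against 53.9% of all. The ranges of all 6 summed signals overlap between the groups, and the part of cell makeup in the uptake and storage values was not tested.

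Activation was read by 13 tested probe sets of 4 acyl-CoA synthetase genes, with a median change of 0.11 and no nominal call. ACSL1, the main synthetase of heart muscle, came closest. Its signals were 11.75, 11.82 and 12.06 in controls 1, 3 and 4 and 11.56, 11.59, 11.54 and 11.75 in low-salt 1 to 4. Control 1 lay above low-salt 4 by less than the rounding shown, so the groups do not overlap but touch. The change was -0.27 ± 0.13 (95% interval -0.54 to 0.01; limma adjusted p = 0.467), which excludes a 2-fold difference. With the array medians set equal it was 0.29, the opposite sign, and it had an unadjusted p under 0.05 without control 1 (-0.33) or low-salt 4 (-0.32) and by the methods' t-test. The 2 dimmer probe sets of ACSL1 differed by 0.46 ± 0.35 and -0.21 ± 0.32.

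The 5 probe sets of ACSL3, a synthetase of the endoplasmic reticulum and lipid droplets, all had changes above 0, from 0.08 to 0.55. ACSL4, which prefers arachidonic acid, differed by 0.10 ± 0.33. ACSL5, found on mitochondria and endoplasmic reticulum, was read in opposite ways by its probe sets: the 2 brighter ones differed by 0.57 ± 0.28 and 0.66 ± 0.33 and the 2 dimmer tested ones by -0.64 ± 0.35 and -0.20 ± 0.35. A further 2, too dim to test, gave 0.56 and 0.54. In the brightest ACSL5 probe set, control 1 (6.36) was the lowest array and controls 3 and 4 (7.23 and 7.08) lay close to low-salt 4 (7.22). All 8 of the ACSL3, ACSL4 and ACSL5 intervals with positive changes held 0.

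**Figure D2:**
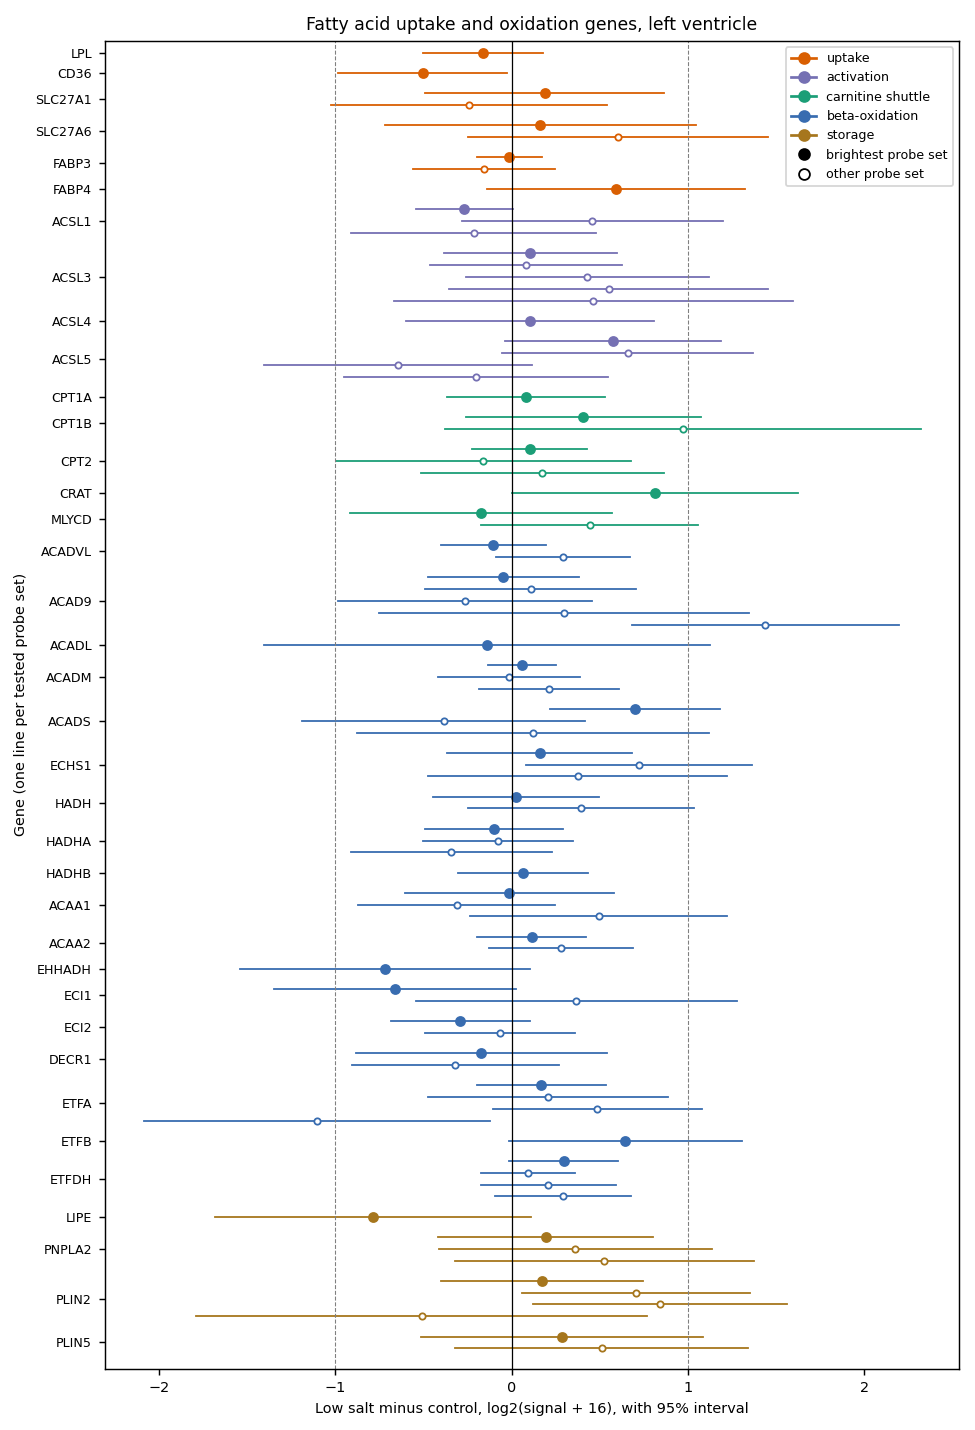
Change between low salt and control (log2, x axis) with its 95% interval for each of the 85 tested member probe sets, grouped by gene (y axis) and coloured by step; filled points mark the brightest probe set of a gene, open points the others, and dashed lines 2-fold. Most bright probe sets lie within 2-fold with their whole interval, while probe sets of one gene often fall on both sides of 0, as in ACSL5, ETFA and PLIN2.

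The carnitine shuttle had 9 tested probe sets of 5 genes with a median change of 0.17. CRAT, carnitine acetyltransferase, which buffers acetyl groups on carnitine, was the 1 member of the step with a nominal call. Its signals were 5.44, 5.12 and 4.90 in the controls and 5.74, 6.42, 5.25 and 6.47 in low salt, so low-salt 2 and 4 stood apart and low-salt 3 lay below control 1. The means were 5.15 ± 0.27 (SD, n = 3) and 5.97 ± 0.59 (SD, n = 4), a change of 0.81 ± 0.38 (95% interval 0.00 to 1.63; limma adjusted p = 0.452). It kept its unadjusted call in 6 of 17 alternatives, with adjusted p from 0.242 to 0.858. It was lost without control 3 (0.80), control 4 (0.69), low-salt 1 (0.89), low-salt 2 (0.66) or low-salt 4 (0.65), and on the values as deposited (0.45).

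CPT1B, the muscle form of carnitine palmitoyltransferase I and the gate of the shuttle, was lowest on control 4 and low-salt 3. The dimmer of its probe sets read 6.68, 7.86 and 4.99 in the controls and 8.0, 7.94, 5.81 and 8.16 in low salt, with control 4 and low-salt 3 far below the rest. Its change of 0.97 ± 0.63 moved to 0.22 without control 4 and to 1.64 without control 3. The brighter probe set gave 7.18, 7.17 and 6.59 against 7.61, 7.51, 6.68 and 7.76, the same 2 arrays lowest, and a change of 0.41 ± 0.31 (95% interval -0.26 to 1.07).

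The remaining shuttle genes had no nominal call. CPT1A, the liver form that is also present in heart, differed by 0.08 ± 0.21 (95% interval -0.37 to 0.53). CPT2, which reforms the acyl-CoA inside the mitochondrion, differed by 0.10 ± 0.15 on its brightest probe set and by -0.16 and 0.17 on the others. MLYCD, which removes the malonyl-CoA that inhibits CPT1, differed by -0.17 ± 0.35 and 0.44 ± 0.29. Over the step, the median deviation from the control mean was 0.17, 0.06 and -0.25 in controls 1, 3 and 4 and 0.37, 0.46, -0.23 and 0.36 in low-salt 1 to 4. Thus 3 of 4 low-salt arrays stood above all controls in this median, and low-salt 3 lay beside control 4.

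**Figure D3:**
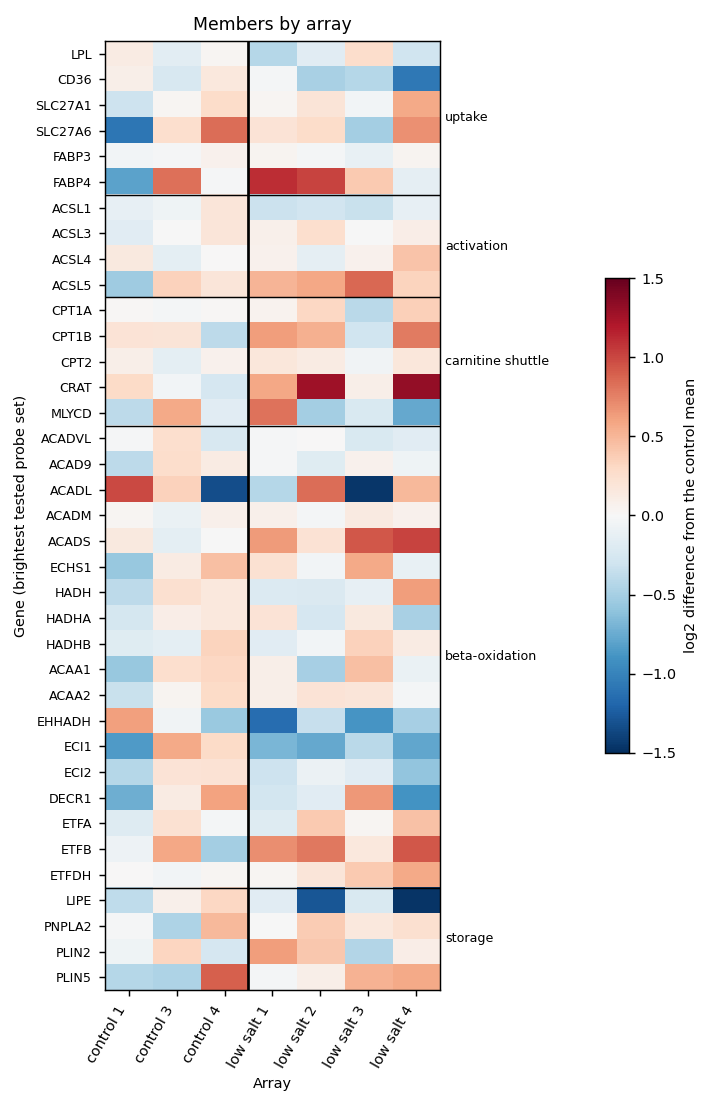
Difference of each array from the control mean (log2, colour scale) for the brightest tested probe set of each of the 37 member genes (rows, grouped by step) on the 7 arrays (columns). Most rows stay pale in both groups, ACADS is above the control mean on all 4 low-salt arrays, and CPT1B and ACADL are lower on control 4 and low-salt 3 than on the other arrays of their group.

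Beta-oxidation itself was read by 44 tested probe sets of 18 genes, with a median change of 0.10. Of the 44, 28 (63.6%) excluded a 2-fold change, against 45.0% of all tested probe sets. These probe sets were brighter, with a median mean signal of 9.54 against 6.10, so the 2 shares are not at like brightness. The first step, dehydrogenation, is shared by enzymes of different chain length. ACADVL, for very long chains, differed by -0.10 ± 0.14 on its brightest probe set and by 0.29 ± 0.18 on the other. ACADM, for medium chains, differed by 0.06 ± 0.09 (95% interval -0.13 to 0.25), with signals of 13.54, 13.41 and 13.58 in the controls and 13.58, 13.48, 13.64 and 13.58 in low salt. ACADM, also among the brightest, had nearly the same SE as FABP3 after quantile normalization, and its other 2 probe sets differed by -0.02 and 0.21. ACADL, for long chains, was dim and scattered, from 4.37 on low-salt 3 and 4.49 on control 4 to 6.82 on control 1, so its change of -0.14 ± 0.59 says little.

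ACADS, which acts on short chains, was higher in low salt on its brightest probe set. Its signals were 8.78, 8.49 and 8.62 in the controls and 9.27, 8.85, 9.56 and 9.64 in low salt. Every low-salt array lay above every control, with low-salt 2 closest to them. The means were 8.63 ± 0.15 (SD, n = 3) and 9.33 ± 0.36 (SD, n = 4), a change of 0.70 ± 0.22 (95% interval 0.22 to 1.18; limma adjusted p = 0.291). It kept its sign and its unadjusted call in 17 of 17 alternatives, with changes from 0.59 to 1.20 and adjusted p from 0.151 to 0.539, so it did not pass in any. The dimmer probe sets did not share the difference: the 2 tested ones gave -0.39 ± 0.37 and 0.12 ± 0.46, and a further one, too dim to test, gave -0.51.

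ACAD9, a dehydrogenase that also helps assemble complex I, had its largest difference on the dimmest of its 5 tested probe sets. That probe set passed the filter on dim signals only through the low-salt arrays: the lowest mean tested was 5.01, and its control mean was below it, so it could be tested only by being higher in low salt. Its signals were 4.25, 4.34 and 5.07 in the controls and 6.26, 5.87, 6.03 and 5.82 in low salt, with no overlap on this scale. The deposited signals were 3.62, 3.87 and 29.6 in the controls and 45.9, 30.4, 66.6 and 25.9 in low salt, where control 4 lay above low-salt 4. The means were 4.55 ± 0.45 (SD, n = 3) and 5.99 ± 0.19 (SD, n = 4), a change of 1.44 ± 0.35 (95% interval 0.68 to 2.20; limma adjusted p = 0.133). The sign and the unadjusted call held in 16 of 16 alternatives, with adjusted p from 0.0518, without control 4, to 0.580. It could not be tested among probe sets above the median signal, and its change was 2.77 with an offset of 1 and 0.64 with an offset of 64. The 4 brighter probe sets of ACAD9 differed by -0.05 ± 0.20, 0.11 ± 0.28, -0.26 ± 0.34 and 0.30 ± 0.49, all with overlapping groups. The alternatives reuse the same arrays, and the filter favoured the direction of this probe set, so neither the difference nor its size is settled. The brighter probe sets do not show it.

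The second and later steps gave small differences on bright probe sets after quantile normalization. HADHA and HADHB, the subunits of the trifunctional protein that runs these steps for long chains, differed by -0.10 ± 0.18 and 0.06 ± 0.17. HADH, the dehydrogenase for shorter chains, differed by 0.02 ± 0.22. ACAA2, the mitochondrial thiolase, differed by 0.11 ± 0.14, and ACAA1, the peroxisomal thiolase, by -0.01 ± 0.28. With equal medians the same 5 differed by 0.50, 0.64, 0.59, 0.63 and 0.46, close to the shift of all bright probe sets. After quantile normalization all 5 had intervals that excluded 2-fold, and so had 4 of the 6 further tested probe sets of HADHA, HADH, ACAA1 and ACAA2.

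ECHS1, the short-chain enoyl-CoA hydratase, had a nominal call on a probe set of middle brightness. It read 7.33, 6.62 and 6.21 in the controls and 7.35, 7.48, 7.28 and 7.65 in low salt, so control 1 lay within the low-salt range. The change was 0.72 ± 0.30 (95% interval 0.08 to 1.36; limma adjusted p = 0.398), and the call held in 9 of 17 alternatives, with adjusted p from 0.290 to 0.809. It was lost without control 3 (0.67), control 4 (0.49), low-salt 2 (0.69) or low-salt 4 (0.62). The brightest probe set of ECHS1 differed by 0.16 ± 0.24 and the dimmest by 0.37 ± 0.39.

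EHHADH, the bifunctional enzyme of peroxisomes, differed by -0.72 ± 0.38 on a dim probe set, and its other probe set, too dim to test, gave 0.19. Of the enzymes for unsaturated fatty acids, ECI1 differed by -0.66 ± 0.32 and 0.37 ± 0.42, with control 1 (7.13) below all 4 low-salt arrays (7.20 to 7.57) on the brighter one. ECI2 differed by -0.29 ± 0.18 and -0.07 ± 0.20, and DECR1 by -0.17 ± 0.33 and -0.32 ± 0.27. All 6 intervals of ECI1, ECI2 and DECR1 held 0.

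Electron transfer flavoprotein and its dehydrogenase take the electrons onward. ETFDH was read alike by its 4 probe sets, all brighter than 10, which differed by 0.30 ± 0.14, 0.10 ± 0.12, 0.21 ± 0.18 and 0.29 ± 0.18. The first read 11.40, 11.35 and 11.43 in the controls and 11.43, 11.58, 11.79 and 11.96 in low salt, where control 4 and low-salt 1 met at the boundary (limma adjusted p = 0.477). All 4 intervals excluded a 2-fold change and held 0. ETFB differed by 0.64 ± 0.31 (limma adjusted p = 0.467), with control 3 (7.56) above low-salt 3 (7.13).

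ETFA had a nominal call on its dimmest probe set, whose low-salt mean of 4.68 lay under the lowest mean tested, so that it was tested only through the controls. It read 6.76, 5.25 and 5.34 in the controls and 4.97, 4.13, 4.36 and 5.26 in low salt, with control 1 well above the rest and low-salt 4 just above control 3. The change was -1.11 ± 0.46 (95% interval -2.09 to -0.12; limma adjusted p = 0.398), and the call held in 11 of 15 alternatives, with adjusted p from 0.206 to 0.805. Without control 1, its highest array, the probe set was too dim to be tested, so the call rests on that array being present. The call was also lost without low-salt 2 (-0.93) or low-salt 3 (-0.99), and the change was -2.19 with an offset of 1 and -0.51 with an offset of 64. The 3 brighter probe sets of ETFA differed in the other direction, by 0.17 ± 0.17, 0.21 ± 0.32 and 0.49 ± 0.28, and none had an unadjusted p under 0.05.

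**Figure D4:**
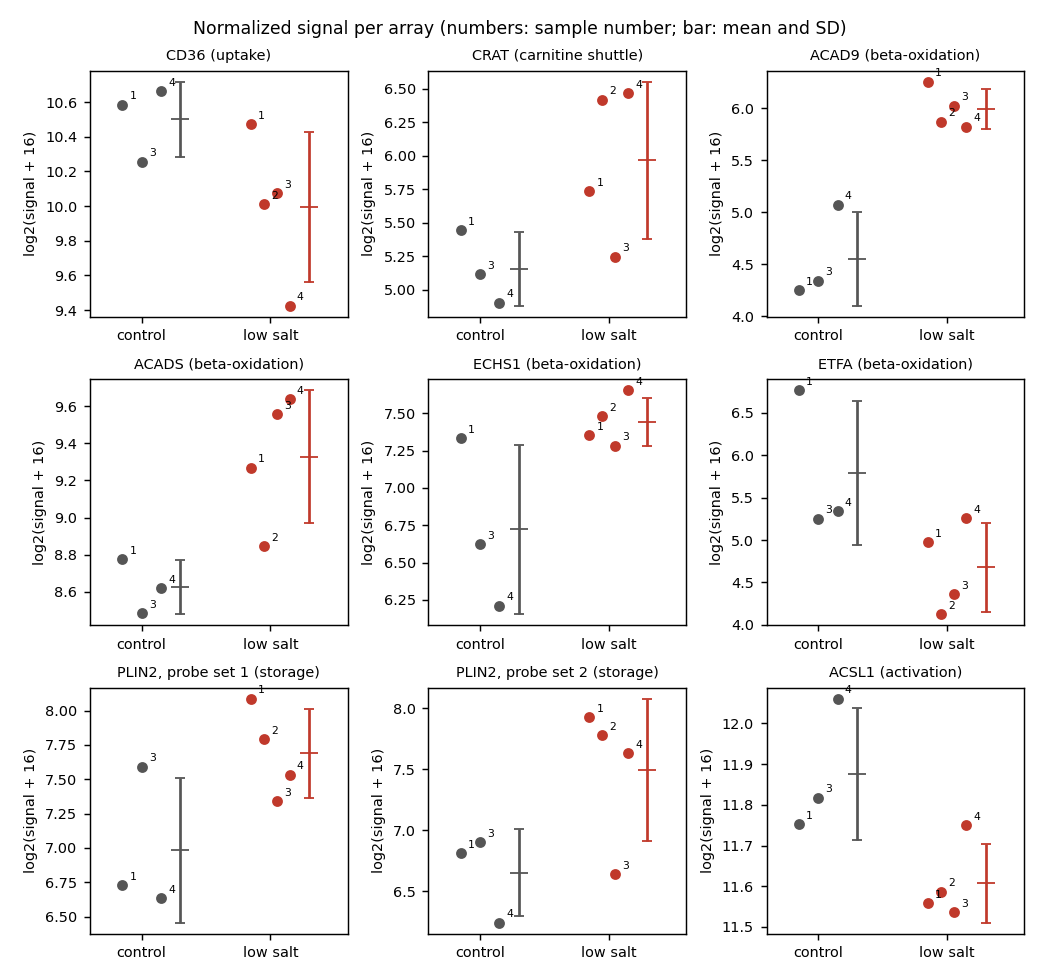
Normalized log2 signal (y axis, a separate range in each panel) of the 8 member probe sets with an unadjusted p under 0.05 and of ACSL1, by group (x axis); points are arrays with their sample numbers, and bars are the mean and SD of 3 control or 4 low-salt arrays. The groups are apart in ACAD9, ACADS and, narrowly, ACSL1, and overlap in the other 6 panels.

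Storage had 10 tested probe sets of 4 genes and a median change of 0.32, with 2 of the 10 intervals (20%) excluding 2-fold, against 45.0% of all. That median includes the dimmest tested probe sets of PNPLA2 and PLIN5, which passed the filter on dim signals only through low salt. PLIN2, the lipid droplet coat protein of most tissues, held both nominal calls. Its second probe set in order of brightness read 6.73, 7.59 and 6.63 in the controls and 8.09, 7.79, 7.34 and 7.53 in low salt, so control 3 lay within the low-salt range. The change was 0.70 ± 0.30 (limma adjusted p = 0.412). The next in brightness read 6.81, 6.90 and 6.24 against 7.93, 7.78, 6.64 and 7.63, with low-salt 3 among the controls. Its change was 0.84 ± 0.33 (limma adjusted p = 0.383), and 1.16 without low-salt 3. The calls held in 8 and 11 of 17 alternatives, with adjusted p from 0.266 to 0.821 and from 0.120 to 0.809. Both calls were lost without control 4 (0.55 and 0.66), low-salt 1 (0.56 and 0.68) or low-salt 2 (0.65 and 0.73), the first also without control 1 (0.59) and the second without low-salt 4 (0.77).

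The other PLIN2 probe sets did not show that difference. The brightest differed by 0.17 ± 0.27, with low-salt 3 (8.13) below all controls (8.30 to 8.88), and the dimmest by -0.51 ± 0.60. PNPLA2, the lipase that opens triglyceride breakdown, differed by 0.19 ± 0.28, 0.36 ± 0.36 and 0.53 ± 0.40. PLIN5, the droplet protein that tethers droplets to mitochondria, differed by 0.28 ± 0.37 and 0.51 ± 0.39. LIPE, hormone-sensitive lipase, differed by -0.79 ± 0.42, with low-salt 2 and 4 (4.51 and 4.33) below the other 5 arrays (5.41 to 6.11). All of these intervals held 0, and the groups overlap in each. Probe sets too dim to test gave 0.24 for PNPLA2, -0.19 for PLIN5 and 0.30 for LIPE.

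Of 26 genes with 2 to 5 tested probe sets, 13 had all signs alike (9 above 0 and 4 below) and 13 had mixed signs. Among the 12 genes with exactly 2 tested probe sets, 8 had signs alike and 4 mixed. The same shares over all genes of the array are not given here, so these counts are not read as a trait of the pathway. Those alike and above 0 include ACSL3, ETFDH, ECHS1, PNPLA2 and PLIN5, and those alike and below 0 include HADHA, ECI2 and DECR1. The dimmest tested probe sets of PNPLA2 and PLIN5 passed the filter only through low salt, so the filter favoured their sign. Taking the brightest probe set of each of the 37 genes, 22 changes were above 0 and 15 below, from -0.79 for LIPE to 0.81 for CRAT. Those above 0 made 59.5%, against 56.0% of all tested genes read in the same way. The median was 0.08, against 0.05 over all those genes. The interval excluded 2-fold for 25 of the 37, in 4 of 6 uptake genes, 3 of 4 activation genes, 3 of 5 shuttle genes, 13 of 18 beta-oxidation genes and 2 of 4 storage genes. No share over all genes stands beside these interval counts, so they only describe the members. The threshold of the authors, an unadjusted p of 0.05 with a 2-fold change, was met with limma by the dim ACAD9 and ETFA probe sets that passed the filter through 1 group, against a background of 4.41%, so nothing is read from this count. With the methods' t-test 1 member met it, the same dim ACAD9 probe set, against 3.04%, so nothing is read from that count either. After Benjamini-Hochberg adjustment of that test 0 members and 4 probe sets of the whole array passed.

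Genes around this pathway were read from 82 further genes in 4 lists, of which 70 are named on the array and 56 had 99 tested probe sets. None passed an adjusted p of 0.05 (lowest adjusted p 0.30, limma), and 10 were nominally higher and 3 lower, which is 13.1% against the background of 11.1%. By list the calls made 16.7% for uptake partners and 9.09% for carnitine supply and other mitochondrial enzymes. They made 17.9% for peroxisomal oxidation and 10% for triglyceride synthesis, droplets and lipolysis. Among partners of uptake, 2 of 18 probe sets were nominally higher, VLDLR (a receptor for triglyceride-rich lipoproteins) by 0.66 ± 0.27 and SLC27A5 (a transport protein of the liver) by 0.85 ± 0.39. One was lower, CAV1, the coat protein of caveolae, by -0.72 ± 0.28, while its brightest probe set differed by -0.25. ANGPTL4, an inhibitor of lipoprotein lipase, differed by 0.83, -0.43 and -0.30 on its probe sets.

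Among 33 probe sets for carnitine supply and other mitochondrial enzymes, 3 were nominally higher and 0 lower: ALDH9A1, of carnitine synthesis, by 1.12 ± 0.41, ACAD8, of valine breakdown, by 0.75 ± 0.28, and UCP3, a mitochondrial carrier, by 0.98 ± 0.38. The brightest probe set of UCP3 differed by 0.53. Peroxisomal oxidation had 28 tested probe sets with a median change of 0.27 (0.04 over all tested probe sets), 4 nominally higher and 1 lower. CROT, which makes medium-chain acylcarnitines for export from peroxisomes, differed by 0.67 ± 0.28 and 0.81 ± 0.36 on its 2 nominal probe sets, and ACOX2, a branched-chain oxidase, by 0.97 ± 0.35. ABCD3, a peroxisomal importer, was called in both directions, 0.77 ± 0.34 on one probe set and -0.65 ± 0.30 on another. On the values as deposited the peroxisomal median was 0.05, and with equal medians it was 0.48. Of 20 probe sets for triglyceride synthesis, droplets and lipolysis, 1 was nominally higher, PLIN3, a droplet coat protein, by 1.17 ± 0.42, and 1 lower, LPIN1, a phosphatidate phosphatase, by -1.17 ± 0.39.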

How the data were processed

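The authors deposited 1 linear intensity per probe set and array, computed in GCOS, the array maker's software, per the submitters' processing notes. The sources used here give neither its settings nor the array's genome build. Arrays had been scaled to 1 mean, since their 2% trimmed means lay between 150.0 and 150.1. From these values log2(value + 16) was computed and quantile normalized, since the array medians differed by more than 0.25. Left out were 175 control probe sets (111 of the array maker and 64 reporters) and the 14287 others of lowest mean over all arrays. Low salt was compared with control by limma 3.58.1 (lmFit and eBayes with trend) in R 4.3.3 without covariates, and p-values were Benjamini-Hochberg adjusted over all 28573 tested probe sets. The script was tested on simulated data.

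Groups and numbers came from the sample titles. Of the 94 member probe sets 87 matched the RefSeq gene table (UU_Cfam_GSD_1.0) by gene number, all 87 with the same symbol. Members, gene lists and markers were chosen with earlier results of these data known. Values are given array by array for members with an unadjusted p under 0.05, or else for the smallest p of a step; the others by their brightest probe set, and the pathway genes by unadjusted p. FABP3, FABP4, CPT1B, ACADM, ETFDH and further array values were added after their values were seen. Alternatives were offsets of 1 and 64, values as deposited, equal medians, other filters, array weights, the methods' t-test, a replicate block, 1 value per gene and each array left out. Leaving out control 4 and low-salt 3 together was added after seeing the data. Promoter motifs were not analysed here.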

Additional observations from a re-analysis of the deposited data

Results flagged for a closer look

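In the carnitine shuttle, low-salt 3 stood apart from the other 3 low-salt arrays. Its median deviation from the control mean was -0.23, against 0.37, 0.46 and 0.36, and the gap to its nearest neighbour was 0.853 of the group's whole range, above Dixon's 95% limit for 4 samples. Chance marks about 1 in 20 such groups, and 3 of the 85 single member probe sets exceeded the limit in the low-salt group. Control 4 had the lowest value of the controls in the same step, -0.25.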

How the results depend on the processing

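No member passed an adjusted p of 0.05 in the 19 alternatives, the lowest adjusted p being 0.0518. Of 85 members, 6 were nominally higher and 2 lower. The counts became 17 and 1 with equal array medians (21.2% of the members against 13.7% of all probe sets), 2 and 1 with the methods' t-test (3.53% against 10.0%) and 2 and 0 with the replicate block (2.35% against 6.27%). As deposited 5 were lower and above the median signal 1. Per gene, over 37 genes and not comparable in number, they were 2 and 1 with the brightest probe set (8.11% against 10.5% of all genes) and 2 and 1 with the mean (8.11% against 10.6%). With 1 array left out they ran from 2 to 12 and from 0 to 5. Deviations of same-numbered samples correlated at 0.07, -0.26 and -0.18. With so few arrays, whose deviations are taken from their own group means, these values cannot show whether equal numbers mark paired samples. The median change of 0.12 became 0.50 with equal medians and ran from 0.07 to 0.18 with 1 array left out. The 46 intervals that exclude 2-fold became 78 with an offset of 64 and 11 with equal medians, and 25 and 27 of 37 genes by the brightest or the mean; with 1 array left out they ran from 37 to 49. Without control 4 and low-salt 3 together, 9 members were nominally higher and 2 lower, with a median of 0.19. With equal medians CD36 turned to 0.072 and ACSL1 to 0.29. The sign turned in 28 of 85 members with 1 array left out, in 17 as deposited and in 19 with equal medians. With 7 arrays, differences under 2-fold in dim probe sets were mostly not resolved. The dim ACAD9 and ETFA probe sets gave no value among probe sets above the median signal, nor did ETFA without control 1.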
